A study of Mus musculus with 31 samples.

Results

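Brain RNA from serum-injected mice taken 3 or 4 h after the injection was compared with that taken after 1 or 1.5 h. The members were the arrays whose titles carry the serum label at those 4 times: 4 arrays at 3-4 h (2 at 3 h and 2 at 4 h) and 6 arrays at 1-1.5 h (3 at 1 h and 3 at 1.5 h), 10 of the 31 arrays of the series. The mice were female C57BL/6 animals aged 6 weeks that received 200 µl of physiological serum through a tail vein under xylazine and ketamine anaesthesia. They were the control arm of a study whose other mice received oleic acid by the same route and in the same volume, and both arms shared the anaesthesia and the injection. No uninjected mice are analysed here and the clock time of injection is not given in the sources used here, so the hours after injection, after anaesthesia and of the day cannot be told apart. Each sample was run on 1 Agilent single-colour (Cy3) array, and levels are log2 processed intensities minus the 75th percentile of the array. A gene passed when limma's Benjamini-Hochberg adjusted p was under 0.05, differences are 3-4 h minus 1-1.5 h, and ± is the standard error (SE) of a difference unless SD is named. The labels number the arrays of a group as replicates without saying that each came from its own mouse, so the spread between samples may be technical in part. The p-values use the spread within groups pooled over all 31 arrays in 12 groups of treatment and time, and not that of the 10 serum arrays alone. Each array is called a brain here.

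Handling, injection and anaesthesia raise circulating corticosterone, which enters the brain and acts through the glucocorticoid receptor, a transcription factor that switches on genes such as Fkbp5, Sgk1, Tsc22d3 and Per1. Several of these genes, and others such as Pdk4 and Angptl4, are also switched on in fasting, through FOXO and PPAR transcription factors. Genes such as Ciart, Per1 and Nr1d1 follow the time of day, driven by CLOCK and BMAL1 at E-box sequences and held down by their own protein products. Immediate early genes such as Fos and Egr1 rise within minutes of neuronal activity and fall again soon after.

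Between the 2 groups 541 of 25280 tested genes passed, or 2.14%: 375 rose (1.48%) and 166 fell (0.657%). Fits of the 10 serum arrays alone passed 25 risers and 7 fallers (2 groups) or 34 and 12 (4 groups). The risers ranged from 0.28 to 2.29 on the log2 scale with a median of 0.72, and the fallers had a median of -0.52. The 3-4 h arrays did not overlap the 1-1.5 h arrays for 216 of the 375 risers and 97 of the 166 fallers, against 2.16% of all tested genes that were separate and higher and 1.39% that were separate and lower. A gene symbol was available for 144 of the risers and 124 of the fallers. Over all tested genes the median difference was 0.04 and 56.5% were higher. Leaving out 1 serum array at a time gave between 126 risers (without 4 h replicate 2) and 724 (without 1.5 h replicate 3). Fallers ranged from 36 (without 3 h replicate 1) to 238 (without 1.5 h replicate 3). All 541 genes kept their direction each time, but they were chosen by passing on these same arrays, so a change of direction was unlikely from the outset. Risers made up 69.3% of the passing genes, 81.3% after normexp background correction, 82.3% after scaling to the array median and 76.9% with no filter on dim probes.

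No slide held arrays of both serum groups. The 6 arrays at 1-1.5 h lay on slides 1 and 2, the 3 h arrays on slide 3 and the 4 h arrays on slide 4. In a fit with slide as a random block 24 genes passed, all among the 541, and slide as a fixed block left 10 genes, none among the 541. With slide as a fixed block beside additive time and treatment terms 3 passed, all among the 541, and the difference kept its sign for 502 of the 541. That fit includes the serum arrays that chose the 541, so a kept sign was likely from the outset. Its median difference was 0.37 for the risers, against 0.72 without slide, and -0.28 for the fallers, against -0.52. Within slide 3, which also held oleic acid mice of 1.5 h and of 3 h, 81.6% of the risers were higher at 3 h (54.2% of all tested genes) and 78.3% of the fallers were lower (45.8% of all). The genes named here that passed with slide as a random block were Angptl4, Map3k6, Ciart, Ccl17, Spdef and Nanos2. The 10 arrays correlated with one another at 0.973 to 0.994 across genes, and the share of spots well above background ran from 59.6% to 60.7% at 3-4 h, against 61.7% to 63.3% at 1-1.5 h. Slide accounted for 88.6% and the late or early group for 4.85% of the spread of their first principal component. For the second component the shares were 79.2% and 44.9%. As no slide held both groups, the share of slide could not be the smaller one, so the shares do not weigh slide against time.

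**Figure D1:**
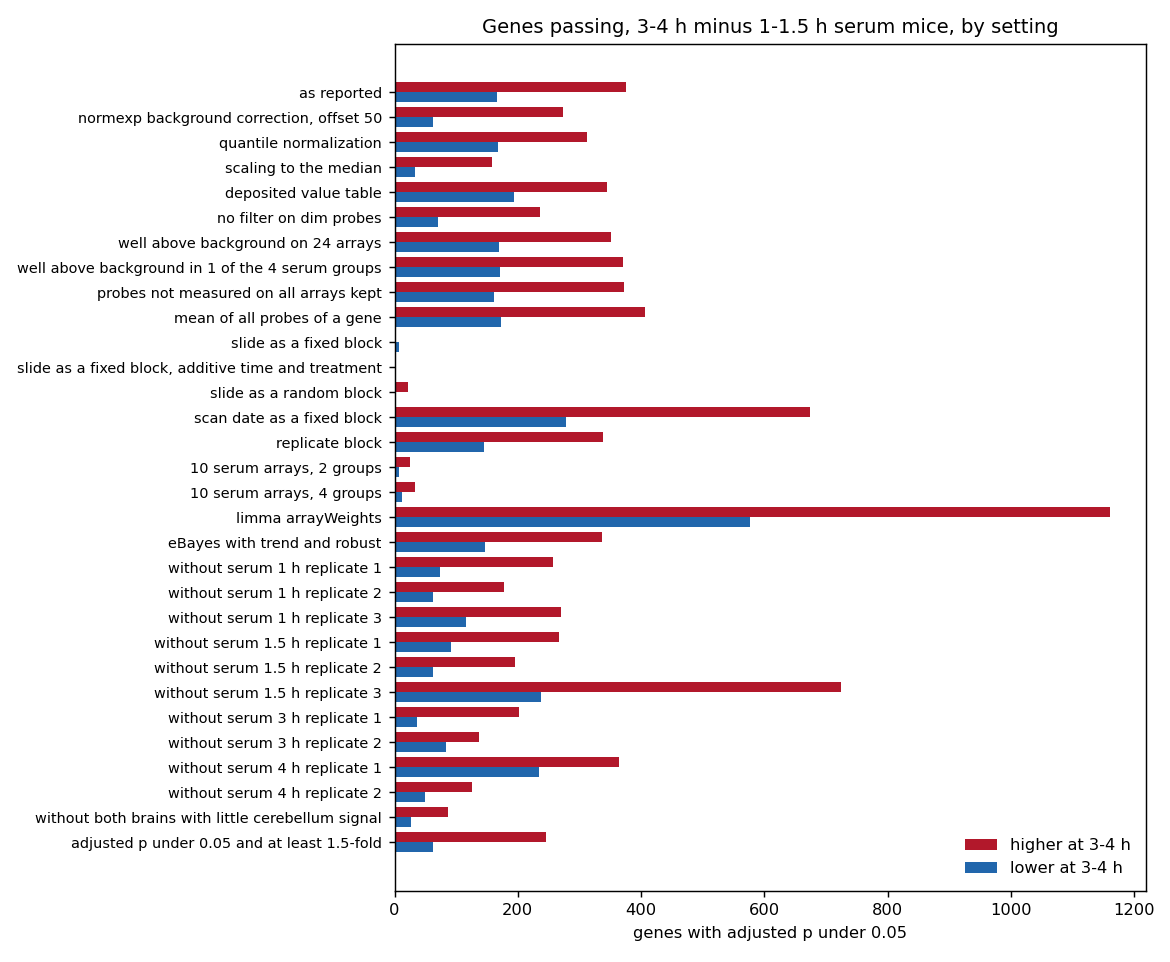
Number of genes with an adjusted p under 0.05 (horizontal) that were higher (red) or lower (blue) at 3-4 h than at 1-1.5 h in serum mice, as reported and under each other setting (one pair of bars each). The count of higher genes runs from 2 with slide as a fixed block to 1161 with array weights.

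The defining markers of brain cells were present in every brain. Snap25 of neurons ranged from 6.25 to 6.66 at 3-4 h and from 5.97 to 6.96 at 1-1.5 h, and Mbp of oligodendrocytes from 3.93 to 4.99 at 3-4 h and from 4.13 to 4.74 at 1-1.5 h. None of the 23 neuronal, 20 oligodendrocyte and 20 microglial list members passed. Cerebellar signal differed between brains. Gabra6, which marks granule cells of the cerebellum, was at -7.31 in 4 h replicate 2 and at -7.50 in 1 h replicate 1, against -1.60, 1.67 and 1.89 on the other 3-4 h arrays and -3.94 to 2.21 on the other 1-1.5 h arrays. The mean of the 18 cerebellum genes was lowest in those 2 brains, at -0.48 and -0.45, and next lowest in 1.5 h replicate 3 at -0.02 (Gabra6 at -3.94) and 3 h replicate 1 at 0.55, against 1.42 to 2.50 in the other 6. Leaving out 1.5 h replicate 3 gave 724 risers and 238 fallers. Without 4 h replicate 2 and 1 h replicate 1 113 genes passed, 99 of them among the 541. In RNA of a whole tissue, fewer cells of a type and less RNA per cell cannot be told apart.

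Most genes known to be switched on by glucocorticoids were higher at 3-4 h, and 1 brain, 4 h replicate 1, had the highest value for most of them. Of 36 members of the glucocorticoid list, 31 were higher (median 0.31, against 0.04 for all tested genes) and 4 passed, all upward. Angptl4, a secreted inhibitor of lipoprotein lipase, had 0.82 and 1.66 in the 3 h brains and 3.14 and 2.28 in the 4 h brains, against a lowest value of -0.22, a median of 0.53 and a highest of 0.58 at 1-1.5 h. All 4 late brains lay above every early brain, and the highest was 4 h replicate 1. The difference was 1.56 ± 0.23 (adjusted p = 0.00135).

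Hif3a, a member of the hypoxia-inducible factor alpha family, had -0.43 and -0.11 at 3 h and 1.39 and -0.08 at 4 h, against -1.74, -1.13 and -0.78 (lowest, median and highest) at 1-1.5 h. It rose by 1.38 ± 0.26 (adjusted p = 0.00807), and the groups did not overlap. A second, dimmer Hif3a probe went the other way, with a difference of -0.63. It was near background, with -6.74 to -4.67 at 3-4 h and -5.69 to -4.01 at 1-1.5 h. The dimmest signal above background on an array ran from -6.06 to -4.38. Rhou, an atypical small GTPase, had 1.52, 1.55, 2.01 and 1.73 on the 3-4 h arrays, against 0.99 to 1.30 at 1-1.5 h, a rise of 0.56 ± 0.13 (adjusted p = 0.0265). Pdk4, the kinase that shuts off pyruvate dehydrogenase in fasting, passed with a rise of 0.50 ± 0.13 (adjusted p = 0.0454) although its groups overlapped. Its 3 h brains, at -1.43 and -1.05, lay on either side of the early ones, which ran from -1.32 to -1.13, and its 4 h brains lay at 0.12 and -0.50.

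The best known members of the list did not pass. Fkbp5, the co-chaperone that dampens the glucocorticoid receptor, had 1.05 and 1.16 at 3 h and 2.65 and 1.26 at 4 h, against 0.73 to 1.05 at 1-1.5 h, a difference of 0.66 ± 0.20 (adjusted p = 0.0919). Plin4, a coat protein of lipid droplets, had 2.46 in 4 h replicate 1 and between -1.42 and -0.64 in the other 3 late brains, against -2.24 to -0.60 at 1-1.5 h (difference 1.18 ± 0.53, adjusted p = 0.272). Sgk1, a kinase that regulates ion channels, differed by 0.41 ± 0.27 (adjusted p = 0.459) and Tsc22d3, an anti-inflammatory leucine zipper protein, by 0.22 ± 0.19 (adjusted p = 0.584). For all 4 genes the highest of the 10 brains was 4 h replicate 1.

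That brain stood apart across the list. Of the 36 members, 28 had their highest value of the 10 brains in 4 h replicate 1, and 3 had it in 4 h replicate 2. Relative to the mean of the early brains, the median member stood at -0.16 and 0.16 in the 3 h brains, at 0.84 in 4 h replicate 1 and at 0.32 in 4 h replicate 2, against -0.12 to 0.16 in the single early brains. Without 4 h replicate 1 the list median was 0.18, with 26 members higher and 2 passing (Angptl4 at 1.35, adjusted p = 0.00754, and Hif3a at 1.01, adjusted p = 0.0393). Rhou (adjusted p = 0.0824) and Pdk4 (adjusted p = 0.172) no longer passed without it. By hour, the list's median was 0.00 at 3 h, where none passed, and 0.61 at 4 h, where 10 did, both minus 1-1.5 h. Why this brain differed was not tested.

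**Figure D2:**
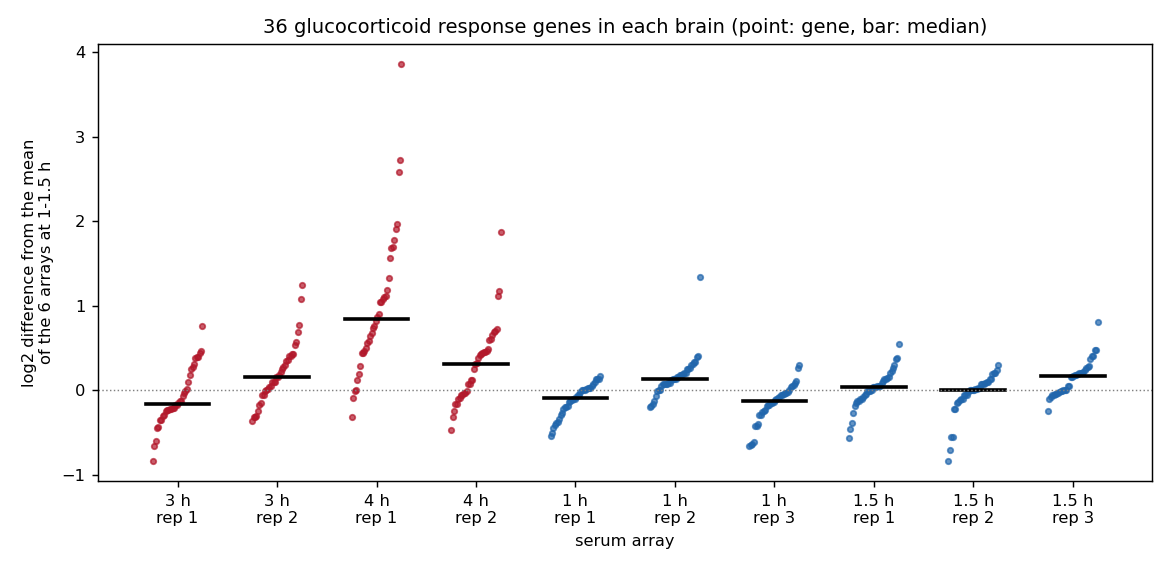
Log2 difference of each of the 36 glucocorticoid response genes from its mean over the 6 arrays at 1-1.5 h, on each serum array (red: 3-4 h, blue: 1-1.5 h; point: gene, bar: median of the list). The median stands at 0.84 in 4 h replicate 1 and between -0.16 and 0.32 in the other 9 brains.

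Map3k6, a stress-activated kinase upstream of JNK and p38 that lay outside the list, rose. It had 0.44 and 0.62 at 3 h and 1.52 and 1.31 at 4 h, against -0.26, -0.10 and 0.18 (lowest, median and highest) at 1-1.5 h. The difference was 1.03 ± 0.11 (adjusted p = 8.7e-05), both of its probes were higher (1.03 and 0.84), and it was 0.98 without 4 h replicate 1.

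Of 22 FOXO and fasting response genes 4 rose and 1 fell, with a median of 0.08. Of all tested genes 1.48% rose and 0.657% fell, with a median of 0.04. By hour, the list's median was 0.01 at 3 h, where 1 rose, and 0.17 at 4 h, where 5 rose, both minus 1-1.5 h. Foxo3, one of the forkhead factors that insulin signalling keeps out of the nucleus, had -0.86 and -0.97 at 3 h and -1.59 and -0.47 at 4 h, against -2.23, -1.89 and -1.66 (lowest, median and highest) at 1-1.5 h. The groups were separate and the difference was 0.95 ± 0.17 (adjusted p = 0.00487). Its probe was designed on a cDNA clone record, and a second, dimmer probe designed on the RefSeq mRNA differed by 0.13. That second probe was also near background, with -4.52 to -3.97 at 3-4 h and -4.66 to -3.71 at 1-1.5 h. Pnpla2, the lipase that opens triglyceride breakdown, had 1.38, 1.48, 2.05 and 1.36 at 3-4 h, against 0.71 to 1.04 at 1-1.5 h, and rose by 0.73 ± 0.15 (adjusted p = 0.0152; 0.56 and adjusted p = 0.0682 without 4 h replicate 1). Arrdc4, an alpha-arrestin that limits glucose uptake, rose by 0.59 ± 0.13 (adjusted p = 0.0181; second probe 0.23). Its relative Txnip differed by 0.55 ± 0.20 without passing (adjusted p = 0.163). Ccng2, a cyclin that FOXO factors induce, went against these risers and fell by 0.63 on the log2 scale (adjusted p = 0.0147), with -3.09 and -3.04 at 3 h and -2.49 and -2.25 at 4 h, against -2.38 to -1.94 at 1-1.5 h, so the groups overlapped.

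Among 29 PPAR targets and fatty acid oxidation genes, 3 rose: Angptl4, Pdk4 and Ucp3, a mitochondrial carrier, which had -0.38, -0.87, -0.24 and -0.50 at 3-4 h, against -1.53 to -1.06 at 1-1.5 h (0.77 ± 0.19, adjusted p = 0.0397; second probe 0.20). The list's median was 0.08, and without 4 h replicate 1 it was -0.01 with 1 member passing. Of all tested genes 1.48% rose, and the median over all was 0.04. Elovl6, which elongates palmitate, fell by 0.40 on the log2 scale (adjusted p = 0.00893) with separate groups, and was the 1 member of 17 fatty acid synthesis genes to pass.

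The probes that carried the leading differences are given by their first 30 of 60 bases, 5′ to 3′ as the array files hold them, since Foxo3, Hif3a and Map3k6 were read by more than 1 probe. The positions of the whole probes, on mm9, come from the annotation in the array files.
Angptl4, chr17:33911880-33911939, minus strand: atggtgctgttgtaggtgctgtggatgcac
Map3k6, chr4:132808672-132808731, plus strand: acagatacggatggatgaacagagaagaca
Hif3a, probe used, chr7:17616855-17616914, minus strand: cagaaacccacaaatgtctccaaaaccacc
Hif3a, probe that went the other way, chr7:17636526-17636585, minus strand: agaagaagctggaagccccaacagagcgcc
Foxo3, probe used, chr10:41967288-41967347, minus strand: gtctatagccaagttttgtagagccagtgg
Foxo3, mRNA probe, chr10:41905610-41905669, minus strand: taaaagcagaaggaaggtgttatatcagtt
The 2 probes of Hif3a and the 2 of Foxo3 lie at different places along each gene, and whether they read different transcripts was not tested.

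**Figure D3:**
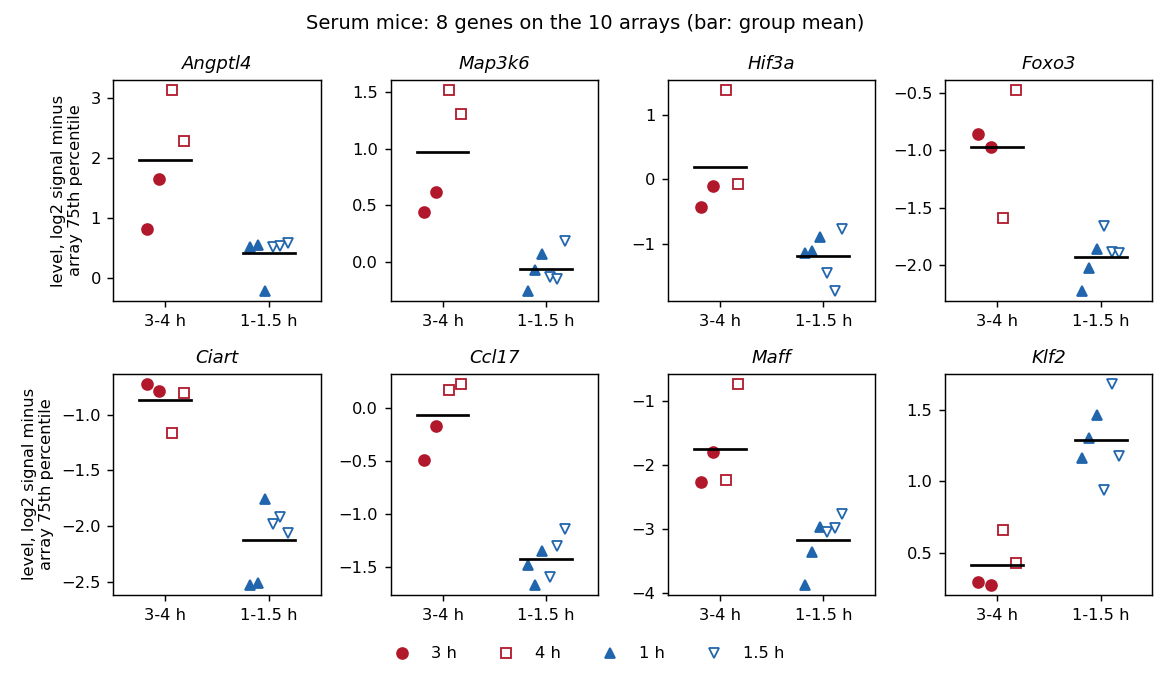
Levels (log2 processed signal minus the array's 75th percentile) of 8 genes on the 10 serum arrays, with 3-4 h left of 1-1.5 h (point: array, bar: group mean, marker shape: hour). The groups do not overlap for any of the 8, most of which were named by a rule that required this. Angptl4, Map3k6, Hif3a, Ccl17 and Klf2 were higher in both 4 h brains than in both 3 h brains.

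In the circadian clock, Ciart rose and the rest of the loop did not pass. Ciart, a repressor that binds the CLOCK and BMAL1 pair, had -0.72 and -0.79 at 3 h and -1.16 and -0.80 at 4 h, against -2.53, -2.02 and -1.76 (lowest, median and highest) at 1-1.5 h. The groups were separate and the difference was 1.26 ± 0.19 (adjusted p = 0.00171). It was the 1 passing member of 18 core loop genes, whose median was 0.04. Per1 was higher in every late brain, with 4.49, 4.57, 4.79 and 4.91, against 3.77 to 4.46, but did not pass (0.48 ± 0.17, adjusted p = 0.159). Nr1d1, a nuclear receptor that represses Arntl, differed by 0.91 ± 0.32 (adjusted p = 0.147) and was lowest among the late brains in 4 h replicate 1, at 0.96. Dbp, an output factor, differed by 0.44 ± 0.16 (adjusted p = 0.164). Per2 differed by 0.09, Nr1d2 by 0.04 and Arntl, which encodes BMAL1, by -0.18, and none passed (adjusted p = 0.838, 0.915 and 0.425).

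Of 14 clock output genes 2 passed, Ciart and Usp2, a clock-controlled deubiquitinase that rose by 0.43 ± 0.10 (adjusted p = 0.0256). Usp2 had 2.55 and 2.71 at 3 h and 3.02 and 3.08 at 4 h, against 2.22 to 2.60 at 1-1.5 h, and the groups overlapped by 1 late brain. Cirbp, an RNA-binding protein induced by mild cooling and rhythmic with body temperature, had 3.64, 3.86, 4.17 and 3.83 at 3-4 h, against 3.32 to 3.84 at 1-1.5 h (0.41 ± 0.09, adjusted p = 0.0173), with overlapping groups. Rbm3, the other well-known cold-induced protein, differed by 0.26 ± 0.11 (adjusted p = 0.247). Of 25 cytosolic heat shock genes 1 passed, Chordc1, a co-chaperone of HSP90, which fell by 0.50 on the log2 scale (adjusted p = 0.00945). Hspa1a, the inducible HSP70, differed by 0.18 ± 0.14 (adjusted p = 0.536).

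The Ciart promoter is shown because CLOCK and BMAL1 bind the E-box CACGTG (its own reverse complement), which is set in capitals. The 250 bases before the annotated start are given, from RefSeq on GRCm38.p6.
Ciart, chr3:95882229-95882478, minus strand: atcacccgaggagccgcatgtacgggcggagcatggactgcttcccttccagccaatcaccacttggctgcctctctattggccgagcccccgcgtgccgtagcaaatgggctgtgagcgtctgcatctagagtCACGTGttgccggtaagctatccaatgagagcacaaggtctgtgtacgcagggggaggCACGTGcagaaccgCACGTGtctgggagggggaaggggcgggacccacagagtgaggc
It holds 3 E-boxes. Among 32851 promoter windows of 300 bases (250 before the start and 50 after), 7.15% hold at least 1. Of 19 genes described here and picked with their values known, 18 have a window in the table, and 6 of these hold an E-box: Arrdc4, Ciart, Fkbp5, Gadd45g, Maff and Per1. The 19 include clock genes such as Per1, Dbp and Nr1d1. A gene counted if any of its windows held the motif, while 7.15% is a share of single windows, so the shares are not alike. Enrichment was not tested. The D-box TTATGTAA and the FOXO element TGTTTAC, searched on both strands, were in none of their windows, and in 0.938% and 3.65% of all windows. The cAMP response element TGACGTCA was in 1, that of Maff, against 1.79% of all windows.

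The immediate early genes did not move as 1 group: of 30 tested, 2 rose, 1 fell, 14 were higher and the median was -0.11. Over all tested genes 1.48% rose, 0.657% fell, 56.5% were higher and the median was 0.04. Maff, a small MAF transcription factor, had -2.26 and -1.79 at 3 h and -2.24 and -0.73 at 4 h, against -3.87, -3.01 and -2.77 (lowest, median and highest) at 1-1.5 h. The groups were separate and it rose by 1.41 ± 0.26 (adjusted p = 0.00652). Gadd45g, a growth-arrest stress gene, rose by 0.64 ± 0.14 (adjusted p = 0.0199), with 3.23 and 3.73 at 3 h and 4.26 and 4.15 at 4 h, against 2.98 to 3.34 at 1-1.5 h. Dusp2, a phosphatase that inactivates MAP kinases, rose by 0.66 ± 0.13 (adjusted p = 0.0132) and was the 1 passing member of 15 MAP kinase feedback genes.

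Klf2, a transcription factor of endothelium and resting T cells, fell. It had 0.30 and 0.28 at 3 h and 0.66 and 0.43 at 4 h, against 0.94, 1.24 and 1.68 (lowest, median and highest) at 1-1.5 h, a difference of -0.87 ± 0.21 (adjusted p = 0.0365) with separate groups. The neuronal members did not pass. Fos was at -0.37 to -0.05 at 3-4 h, against -0.26 to 1.24 with a median of 0.67 at 1-1.5 h (difference -0.69 ± 0.25, adjusted p = 0.156). Egr1 differed by -0.47 ± 0.20 (adjusted p = 0.25), Arc by -0.40 ± 0.37 (adjusted p = 0.621), Npas4 by 0.23 ± 0.20 (adjusted p = 0.588) and Junb by -0.09 ± 0.26 (adjusted p = 0.898). None of 22 late-response genes of neuronal activity passed, and their median was -0.04.

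Chemokine genes moved in both directions. Of 19 cytokine and chemokine genes tested 2 rose and 1 fell, with a median of 0.07. Of all tested genes 1.48% rose and 0.657% fell, with a median of 0.04. Ccl17, a ligand of the receptor CCR4, had -0.49 and -0.17 at 3 h and 0.17 and 0.23 at 4 h, against -1.67, -1.42 and -1.14 (lowest, median and highest) at 1-1.5 h. It rose by 1.36 ± 0.17 (adjusted p = 0.000243). Ccl19, a ligand of CCR7, rose by 0.69 ± 0.12 (adjusted p = 0.00556), and all 3 of its probes were higher. Cxcl12, the ligand of CXCR4 made by vessels, meninges and neurons, had 2.05, 2.24, 2.04 and 2.61 at 3-4 h, against 2.62 to 3.08 at 1-1.5 h, and fell by 0.60 on the log2 scale (adjusted p = 0.0136), with a second probe at -0.20. Of the acute inflammatory genes, Ccl2 differed by 0.67 ± 0.38, Cxcl10 by -0.22 ± 0.33 and Il1b by -0.25 ± 0.24, and none passed (adjusted p = 0.392, 0.779 and 0.626). Il1b was well above background on 1 of 4 late and 3 of 6 early arrays.

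The Ccl17 probe, the only one kept for the gene, is shown by its first 30 bases.
Ccl17, chr8:97335770-97335829, plus strand: tttggagacgccagggctgctgtccatggt

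Single genes known from leukocytes, vessels or astrocytes fell, while their lists did not move one way: 1 of 24 astrocyte, 1 of 22 endothelial and 1 of 16 neutrophil and monocyte genes passed, with medians of 0.00, 0.01 and 0.09, and 0 of 20 microglial genes. Ets1, a transcription factor of lymphocytes and endothelium, had -2.79, -2.56, -2.63 and -3.58 at 3-4 h, against -2.25 to -1.81 at 1-1.5 h (-0.90 ± 0.19, adjusted p = 0.0166). Myo1f, a myosin of leukocytes and microglia, fell by 0.78 on the log2 scale (adjusted p = 0.0298), Trim30d, a TRIM protein, by 0.87 (adjusted p = 0.00364) and Lyz1, a lysozyme with a near-identical copy, by 0.67 (adjusted p = 0.0381). Zfp36l1, which speeds decay of cytokine mRNAs, fell by 0.59 (adjusted p = 0.0121) and was the 1 passing member of 21 NF-kB feedback genes. Gja1, the astrocyte gap junction protein connexin 43, had -0.63, -0.58, -0.51 and -0.82 at 3-4 h, against -0.25 to -0.02 at 1-1.5 h (-0.52 ± 0.11, adjusted p = 0.0169). Slco1a4, an organic anion transporter of the blood-brain barrier, fell by 0.41 (adjusted p = 0.0145), and Slc7a11, the cystine and glutamate exchanger, by 0.47 (adjusted p = 0.0238). Nr3c1, which encodes the glucocorticoid receptor and was chosen for naming after its values were seen, had 3.03, 3.14, 3.23 and 3.29 at 3-4 h, against 3.55 to 3.82 at 1-1.5 h (-0.53 ± 0.11, adjusted p = 0.0152). Where a second, dimmer probe read one of these genes, that probe differed by -0.27 (Ets1), -0.17 (Myo1f) and -0.21 (Nr3c1). The groups overlapped for Lyz1, Slco1a4 and Slc7a11. With slide as a fixed block beside additive terms Gja1 differed by -0.09 ± 0.17, Slco1a4 by -0.10 ± 0.11 and Lyz1 by -0.27 ± 0.31. The other genes of this paragraph ran from -0.59 (Trim30d and Myo1f) to -0.41 (Slc7a11) in that fit, and none passed.

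Of 29 interferon-stimulated genes none passed, 20 were lower and the median was -0.18. Among them Ifit1 differed by -0.57 ± 0.16 (adjusted p = 0.061) and Oas2 by -0.53 ± 0.24 (adjusted p = 0.263). Single members of other lists rose: Tnfrsf10b, a death receptor that p53 induces, by 0.87 ± 0.21 (adjusted p = 0.0336), Mcm2, a subunit of the replication helicase, by 0.62 ± 0.13 (adjusted p = 0.0176), Tmem72 of the choroid plexus by 0.63 ± 0.16 (adjusted p = 0.0467), the neuropeptide Nmb by 0.52 ± 0.12 (adjusted p = 0.0241) and the noncoding RNA Snhg1 by 0.30 ± 0.07 (adjusted p = 0.0336). Of these only Tnfrsf10b had overlapping groups. With slide as a fixed block beside additive terms Tnfrsf10b differed by 0.02 ± 0.36 and Tmem72 by 0.02 ± 0.30. In that fit Mcm2 differed by 0.44, Nmb by 0.52 and Snhg1 by 0.18, and none of them passed. Of 18 p53 targets 16 were higher (median 0.23), against 56.5% of all tested genes (median 0.04). By hour, the p53 list's median was 0.01 at 3 h, where 0 rose, and 0.38 at 4 h, where 3 rose, both minus 1-1.5 h. Cdkn1a, the cell cycle inhibitor that glucocorticoids also induce, differed by 0.76 ± 0.21 (adjusted p = 0.0661). It had 0.99 and 1.07 at 3 h and 2.46 and 2.07 at 4 h, against 0.24 to 1.17 at 1-1.5 h.

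Several of the largest differences were in genes better known outside the brain. Spdef, an ETS factor of secretory epithelia, had -1.45 and -0.70 at 3 h and -0.44 and -0.48 at 4 h, against -2.39, -2.16 and -1.96 (lowest, median and highest) at 1-1.5 h, and rose by 1.40 ± 0.16 (adjusted p = 0.000129). It was above background on all 10 arrays and was the 1 named gene to pass with slide as a fixed block beside additive terms (1.46, adjusted p = 0.0124). Nanos2, an RNA-binding protein of male germ cells, rose by 1.25 ± 0.16 (adjusted p = 0.000274), Mospd4 by 1.17 ± 0.20 (adjusted p = 0.00367) and the vomeronasal receptor Vmn1r195 by 1.14 ± 0.25 (adjusted p = 0.0219). Foxi3, a forkhead factor of ectodermal placodes, and the olfactory receptor Olfr332 were above background on none of the early arrays and on 2 and 3 of the late ones. For these 2 genes early values were set to the dimmest signal above background on each array, or the probe's own where higher. Measured so, Foxi3 was 1.53-fold and Olfr332 1.78-fold higher at 3-4 h, with limma adjusted p of 0.0236 and 0.0152. These are not strict lower bounds, as late values not above background entered as measured.

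The fallers of the same kind were near background. Rab19, a small GTPase, was above background on no late array and on all 6 early ones, and was at least 1.65-fold lower at 3-4 h (adjusted p = 0.0122). Olfr1312 was at least 1.94-fold lower (adjusted p = 0.0442), as was H3c7 at least 1.82-fold (adjusted p = 0.0442), a replication-dependent histone H3 gene whose near-identical copies the probe may also read. Olfr170 was above background on 0 of 4 late and 2 of 6 early arrays and has no bound. Above background on every array, Mkks, a chaperonin-like protein of the cilium, had 0.54, 0.61, 0.83 and 1.06 at 3-4 h, against 1.23 to 1.74 at 1-1.5 h (-0.74 ± 0.12, adjusted p = 0.00367). The zinc finger genes Zfp455 and Zfp759 fell by 0.71 and 0.69 on the log2 scale (adjusted p = 0.0169 and 0.0443). Of the 375 risers 27 were above background on no early array, and of the 166 fallers 9 on no late array. Of the risers 301, and of the fallers 152, were above background on all 10.

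Transcripts of other organs varied between brains of the same group. Scgb1a1, made by club cells of the airway, had -0.44, -1.52, -2.88 and -5.10 at 3-4 h, against -1.32, 0.77 and 3.18 (lowest, median and highest) at 1-1.5 h, and its fall of 3.43 on the log2 scale passed (adjusted p = 0.0467) with overlapping groups. Sftpc, a surfactant protein, differed by -1.87 ± 0.61 (adjusted p = 0.117), and all 9 lung genes were lower. Of 23 liver plasma protein genes 20 were lower (median -1.19) and none passed; Alb, albumin, ranged from -6.09 to 0.46 at 3-4 h and from -1.11 to 2.78 at 1-1.5 h. The mean level of the lung list ran from -3.14 to -2.51 at 3-4 h, against -2.63 to -0.33 at 1-1.5 h. The mean of the liver list was 0.81 in 1 h replicate 2 and -3.86 in 4 h replicate 2. The other early brains (-2.13 to -1.38) overlapped the other late ones (-2.55 to -1.43). In oleic acid mice the medians over the same hours were 0.80 for the liver genes (23 of 23 higher) and 0.48 for the lung genes (8 of 9 higher). There 61.6% of all tested genes were higher, and no liver or lung gene passed. Of 14 erythroid genes 13 were higher (median 0.34) and none passed. By hour, the list's median was 0.58 at 3 h and 0.03 at 4 h, both minus 1-1.5 h. The summed linear level of the list ran from 455 to 927 at 3-4 h and from 328 to 714 at 1-1.5 h. Hbb-bt, a beta globin, differed by 0.44 ± 0.29 (adjusted p = 0.462). The neutrophil genes S100a8 and S100a9 differed by -0.07 and -0.06 (adjusted p = 0.945 and 0.949). The part of blood or organ transcripts in the other differences was not tested.

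Each late hour was also set against the same early brains. At 3 h 393 genes passed and at 4 h 507. Between the 4 h and the 3 h brains, which lay on different slides, 83 passed (0.328%), among them Pdk4, higher at 4 h by 1.05 (adjusted p = 0.0441), and Map3k6, higher by 0.88 (adjusted p = 0.0441). Angptl4 was higher at 4 h by 1.47 (adjusted p = 0.0555), without passing. Between 1.5 h and 1 h limma passed no gene. Of the 25280 genes, 945 had an unadjusted p under 0.05, a smaller share than the 0.05 that chance alone gives.

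The 3-4 h brains were also compared with the 4 serum brains of 18-24 h, a comparison that shares the 3-4 h arrays with the main one. Map3k6 averaged 0.53 ± 0.13 at 3 h and 1.42 ± 0.15 at 4 h, against -0.24 ± 0.17 at 18 h and -0.24 ± 0.03 at 24 h (SD, n = 2 each), and was higher at 3-4 h by 1.21 (adjusted p = 1e-05). Angptl4 exceeded 18-24 h by 1.47 (adjusted p = 0.00142) and Ccl17 by 1.15 (adjusted p = 0.00066). Ciart averaged -2.27 at 1 h, -1.99 at 1.5 h, -0.76 at 3 h, -0.98 at 4 h, -3.13 at 18 h and -3.39 at 24 h, and was higher at 3-4 h than at 18-24 h by 2.40 (adjusted p = 1.76e-06). Foxo3 averaged -0.92 at 3 h and -1.03 at 4 h, against -2.87 at 18 h and -2.76 at 24 h, a difference of 1.84 (adjusted p = 9.18e-06). Cirbp was 0.94 higher at 3-4 h than at 18-24 h (adjusted p = 1e-05). In all 982 genes passed between 3-4 h and 18-24 h (3.88%), on slides that overlapped only in slide 4.

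**Figure D4:**
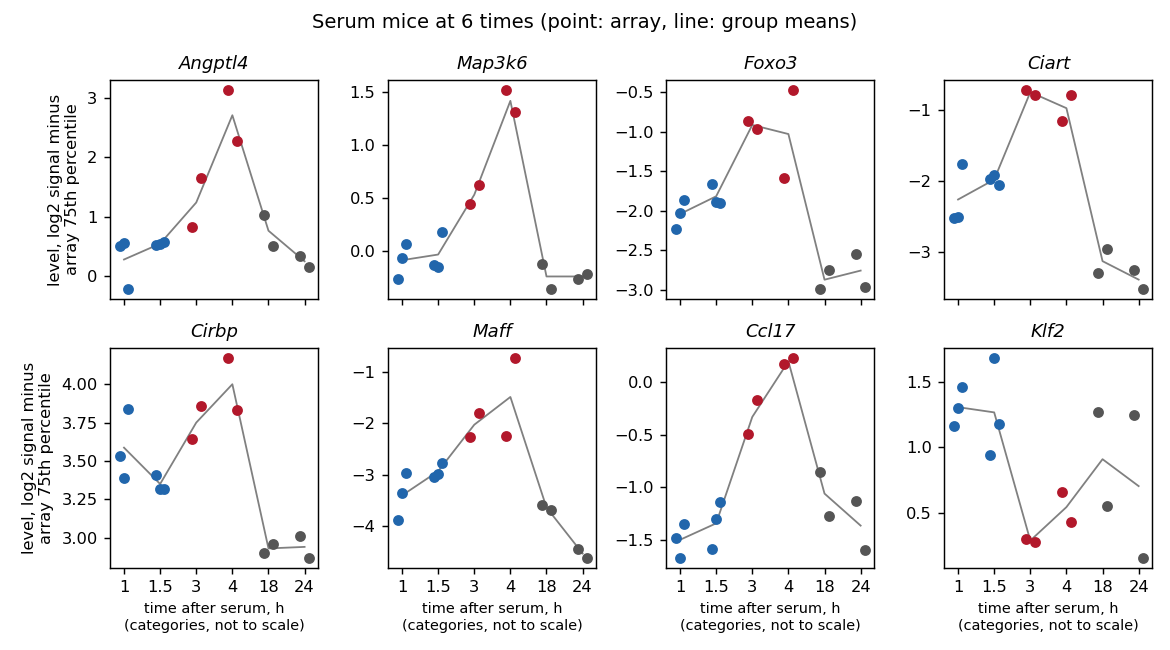
Levels (log2 processed signal minus the array's 75th percentile) of 8 genes in serum mice at 1, 1.5, 3, 4, 18 and 24 h (point: array, line: group means, time axis by category). Angptl4, Map3k6 and Ccl17 have their highest mean at 4 h, and Ciart has its highest at 3 h.

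The same hours were compared on 12 other arrays, of mice given oleic acid (6 in each group), which lay in part on the same slides as the serum arrays. There 240 genes rose (0.949%) and 44 fell (0.174%). Of the 375 serum risers 364 were higher in oleic acid mice too (97.1%, against 61.6% of all tested genes), and of the 166 fallers 153 were lower (92.2%, against 38.4%). The risers' median difference was 0.41 in oleic acid mice, against 0.72 in the serum mice that chose them. Of the risers 28.5% and of the fallers 5.42% also passed in oleic acid mice, in the same direction. No gene passed the test of a difference between the arms by limma. Of the 25280 genes, 1023 had an unadjusted p under 0.05, again a smaller share than the 0.05 that chance alone gives.

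Oleic acid mice gave Map3k6 a rise of 0.99 ± 0.10 (adjusted p = 5.03e-05), Angptl4 1.76 ± 0.20 (adjusted p = 9.9e-05), Spdef 1.26 ± 0.14 (adjusted p = 9.9e-05), Ccl17 1.16 ± 0.15 (adjusted p = 0.000366) and Foxo3 1.16 ± 0.15 (adjusted p = 0.000436). Ciart rose by 0.79 ± 0.17 (adjusted p = 0.0207) and Maff by 1.16 ± 0.23 (adjusted p = 0.0141). Glucocorticoid genes that did not pass in serum mice passed there, with 14 of 36 rising and 35 higher: Fkbp5 rose by 0.75 ± 0.18 (adjusted p = 0.0414), Sgk1 by 0.99 ± 0.24 (adjusted p = 0.0418) and Mt2, a metallothionein, by 0.64 ± 0.13 (adjusted p = 0.0139). For Fkbp5 the serum difference minus the oleic acid difference was -0.09 ± 0.27 (adjusted p = 1), and for Sgk1 -0.58 ± 0.36 (adjusted p = 1). Klf2 differed by 0.02 ± 0.19 in oleic acid mice (adjusted p = 0.975), and serum minus oleic acid was -0.88 ± 0.29, which did not pass (adjusted p = 1).

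Within slide 3 the oleic acid mice of 3 h minus those of 1.5 h, 2 against 2, gave 1.51 for Ciart, 1.38 for Maff, 1.36 for Foxo3, 1.11 for Angptl4, 0.78 for Ccl17 and 0.70 for Map3k6, all in the direction of the serum mice. Hif3a (0.31), Nanos2 (0.20), Rhou (0.09), Slco1a4 (-0.05) and Lyz1 (-0.01) also kept the serum direction, with smaller differences than in serum mice. Klf2 stood at 0.55, Rab19 at 0.46, Gja1 at 0.06 and Mcm2 at -0.02, opposite to the serum mice. The median there was 0.21 for the 375 risers and -0.17 for the 166 fallers, against 0.72 and -0.52 in serum mice. No gene passed in that comparison.

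**Figure D5:**
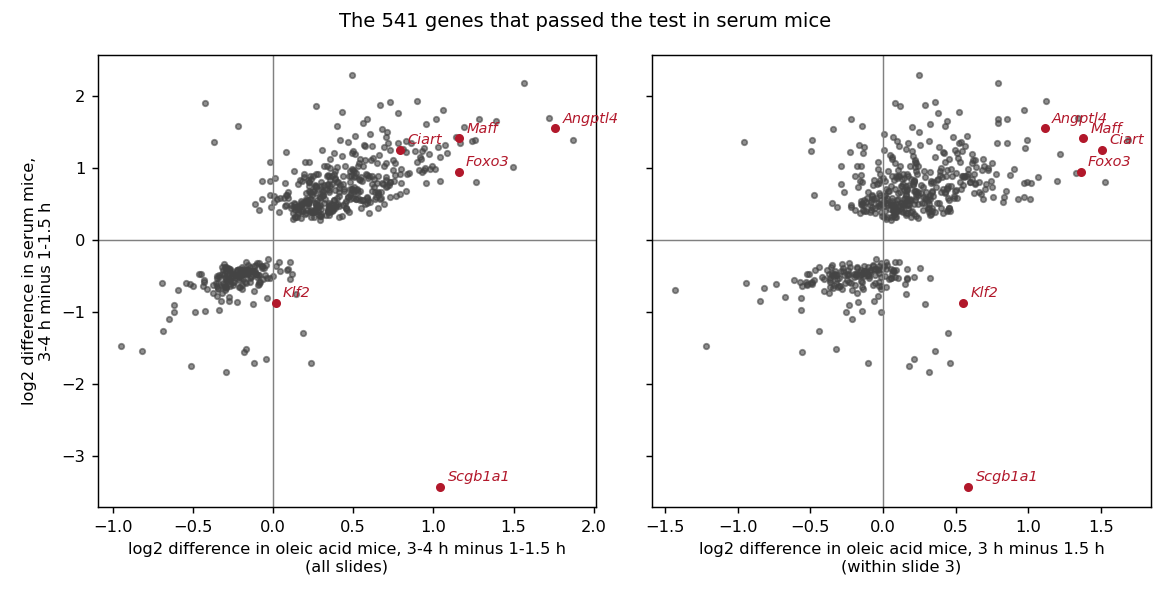
Log2 difference between 3-4 h and 1-1.5 h in serum mice (vertical) against the difference in oleic acid mice over all slides (left) and within slide 3 at 3 h minus 1.5 h (right), for the 541 genes that passed in serum mice (point: gene, red: named genes). Of the 375 risers 364 lie right of 0 on the left and 306 on the right, and Scgb1a1, lower in serum mice, lies at 1.04 on the left and 0.59 on the right.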

How the data were processed

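Per the submitters' processing notes, the Cy3 arrays were read with Agilent Feature Extraction (version 10.5.1.1). The deposited scanner files give processed intensity per spot, background-subtracted by the authors' scanner software, and the deposited value table holds the authors' log2 values, median 6.13 on every array, used as an alternative. Intensities were converted to log2 minus each array's 75th percentile, spots were averaged, and 35498 of 55681 probes were kept, those well above background throughout 1 or more groups and measured on all arrays. Names came through RefSeq accessions, and each of 25280 genes kept its brightest probe. One limma (version 3.58.1, R 4.3.3) fit of 12 group means over 31 arrays gave every contrast, with Benjamini-Hochberg adjustment. The script was tested on simulated data. The members, gene lists and tests were chosen with earlier results of these data known. Named genes were the 12 with the largest difference per direction among those that passed with separate groups, passing over clone identifiers, up to 4 passing members per list (or 2 not passing), the 5 smallest adjusted p of other contrasts, and a panel. The number of arrays limits the precision. Some items are not reported here.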

Additional observations from a re-analysis of the deposited data

Results flagged for a closer look

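Of 184 sets of 4 or 6 serum values examined, 11 (5.98%) held 1 brain far from the others, and chance gives about 1 in 20. Of the 3-4 h brains, 4 h replicate 1 stood apart for Fkbp5 (2.65), Pnpla2 (2.05) and Fos (-0.37). Of the 1-1.5 h brains, 1 h replicate 3 stood apart for Angptl4 (-0.22), Dbp (5.22), Chordc1 (1.72) and the hypothalamic neuropeptide Hcrt (1.38), 1 h replicate 1 for Dusp2 (-0.83), 1.5 h replicate 1 for Tnfrsf10b (-4.17), and 1.5 h replicate 3, the early serum array on slide 2, for Olfr170 (-4.24) and H3c7 (-2.76).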

How the results depend on the processing

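Counts of passing genes depended on the treatment of slide, on scaling and on single arrays. Against 375 higher and 166 lower genes at 3-4 h, slide gave 2 and 8 as a fixed block, 3 and 0 with additive terms and 22 and 2 as a random block, and scan date as a block gave 674 and 278. Fits of the 10 serum arrays alone gave 25 and 7 (2 groups) or 34 and 12 (4 groups), median scaling 158 and 34, no filter 236 and 71, array weights (which did not converge) 1161 and 577, leaving out both brains with little cerebellum signal 87 and 26, and a 1.5-fold minimum 245 and 62. Normexp correction left 63 lower genes. For 3 h, normexp gave 236 genes, median scaling 57, no filter 159, slide 10 (fixed) and 1 (random), scan date 1591, array weights 2629 and leaving out those 2 brains 228. For 4 h, median scaling gave 164, no filter 159, slide 3 and 25, and leaving out those brains 53. For 4 h minus 3 h, normexp gave 0, quantile normalization 27, median scaling 13, no filter 4, signal on 24 arrays 166, slide 0 and 0, scan date 760, array weights 1, trended robust variances 211 and leaving out those brains 16. Array weights gave 57 genes for 1.5 h minus 1 h. Against 18-24 h, normexp gave 589, median scaling 330, no filter 639, slide as a fixed block 312 and leaving out those brains 637. In oleic acid mice the counts were 173, 58, 159, 2 and 16 (slide fixed and random), and 2100 with array weights. The test between arms gave 2 genes with quantile normalization and 4 with slide as a fixed block. The causes were not tested.

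Leaving out 1 serum array at a time gave 126 to 724 higher and 36 to 238 lower genes, 14 to 1414 at 3 h, 75 to 456 at 4 h, 7 to 230 for 4 h minus 3 h, 0 to 1 for 1.5 h minus 1 h, 546 to 962 against 18-24 h, 248 to 336 in oleic acid mice and 0 to 1 between arms. With the replicate block 338 genes were higher and 146 lower, 427 of them shared with the 541. Same-numbered arrays deviated together with correlations of -0.46 to 0.31, so the numbers were not taken to pair the samples. Of 2709 values of 92 named genes under other settings, 2158 kept direction and side of the threshold, 532 no longer passed, 14 newly passed and 5 reversed: Rhou (-0.28) and Olfr1312 (0.33) with slide as a fixed block, and Usp2 (-0.01), Foxi3 (-0.27) and Scgb1a1 (0.50) with additive terms.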
